A study of Rattus norvegicus with 144 samples.

Results

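The adrenal cortex makes corticosterone and aldosterone from cholesterol, and the 10 rat genes described here carry or control that synthesis: Star, Cyp11a1, Fdx1, Fdxr, Cyp21a1, Cyp11b1, Cyp11b2, Mc2r, Nr5a1 and Nr0b1. They were found by their symbol in the annotation of an Affymetrix rat expression array with 31042 probe sets. Of these, 10 probe sets carried 1 of the symbols alone and covered 7 genes. A further 3 probe sets carried Cyp11b1 together with its near neighbours Cyp11b2 or Cyp11b3, so that Cyp11b2, the aldosterone synthase, was read only by probe sets it shares, and signal from one of these genes could not be separated there from another. Mc2r, the receptor for ACTH, and Fdxr, the reductase that feeds electrons to Fdx1, were matched by no probe set and are not analysed here.

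The arrays came from a toxicology study of 2 compounds, AMG A and AMG B, whose series design text expects changes tied to an antiangiogenic action; the names are codes and no structure is used here. Male Sprague Dawley rats of 8 to 10 weeks were dosed by mouth every day, with AMG B at 0, 3 or 60 mg/kg for 1, 4 or 14 days, or with AMG A at 0, 3 or 30 mg/kg, for which adrenal arrays were from day 14. Each of the 12 adrenal groups held 4 animals with 1 array each, 48 arrays in all, and no genetic alteration or further treatment is named for any group. The controls received 0 mg/kg; the titles of the day 14 adrenal and pancreas controls name no compound, and their study was taken from the other arrays of the same animal numbers. A whole adrenal gland holds cortex, medulla, vessels and capsule, and in such tissue a smaller number of cells of one type and less RNA per cell cannot be told apart.

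Steroid synthesis starts when the Star protein brings cholesterol to the inner mitochondrial membrane. There Cyp11a1 cleaves its side chain with electrons passed from Fdxr through Fdx1, and after further steps Cyp21a1 and then Cyp11b1 or Cyp11b2 finish corticosterone or aldosterone. ACTH acts through Mc2r and cyclic AMP to raise transcription of many of these genes; Nr5a1 (steroidogenic factor 1) is the nuclear receptor that activates them in the cortex, and Nr0b1 (DAX-1) is a repressor of Nr5a1.

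Promoters were read for the 7 members with an entry in the RefSeq table for the build GRCr8 (Cyp11a1, Cyp21a1, Fdx1, Fdxr, Mc2r, Nr0b1 and Nr5a1; Star, Cyp11b1 and Cyp11b2 had none). The core half-site of Nr5a1 and related nuclear receptors, AGGTCA, was searched on both strands of the 250 bases before each start, with no other motif that could overlap it. It was in 4 of the 7 windows (Cyp11a1, Cyp21a1, Fdx1 and Nr0b1), against 14.1% of all 33469 windows of that length. The windows of Cyp11a1 and Cyp21a1 are shown because these genes followed each other most closely over the animals, and that of Nr0b1 because it did not follow them; capitals mark AGGTCA on the printed strand. They lie at chr8:67318415-67318664 (plus strand), chr20:4028141-4028390 (plus strand) and chrX:54707408-54707657 (plus strand).
Cyp11a1: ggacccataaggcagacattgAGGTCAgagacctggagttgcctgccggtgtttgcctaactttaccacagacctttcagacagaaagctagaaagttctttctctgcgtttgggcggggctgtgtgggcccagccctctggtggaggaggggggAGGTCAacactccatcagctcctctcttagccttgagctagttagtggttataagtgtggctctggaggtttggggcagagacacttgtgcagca
Cyp21a1: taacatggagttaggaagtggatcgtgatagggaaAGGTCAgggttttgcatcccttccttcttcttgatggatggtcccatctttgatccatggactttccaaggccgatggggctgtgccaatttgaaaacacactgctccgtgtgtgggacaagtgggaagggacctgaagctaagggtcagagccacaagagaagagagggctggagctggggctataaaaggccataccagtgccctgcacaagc
Nr0b1: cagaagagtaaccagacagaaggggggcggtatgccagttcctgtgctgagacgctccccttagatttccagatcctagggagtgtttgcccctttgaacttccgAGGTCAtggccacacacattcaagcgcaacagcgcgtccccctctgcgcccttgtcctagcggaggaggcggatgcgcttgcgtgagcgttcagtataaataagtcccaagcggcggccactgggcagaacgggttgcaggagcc
Cyp11a1 held AGGTCA at 2 places, 229 and 95 bases before the start, and Cyp21a1 and Nr0b1 held it at 1 place each, 215 and 145 bases before the start. These starts are those of the promoter entries. The annotated span of the Cyp21a1 gene begins earlier, at 4028323, inside the printed window. The windows of Fdxr, Mc2r and Nr5a1 also overlap their gene spans. A match describes these letters and was not tested as a binding site.

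The values are the authors' scores, which centre every probe set near 0 and scale it to an SD of about 1 across arrays. A score of 1 is therefore about 1 SD of that probe set over adrenal, liver and pancreas together, a difference in score is not a fold change, and levels were not compared between genes. To give the differences a scale, each was also set against the distance from the control adrenals of that comparison to the 12 control livers of the AMG B study, called here the adrenal to liver gap and taken as fixed. Signal brightness is not in the scores, so whether a bright probe set had reached the top of its range was not tested.

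As a check of the tissue labels, 12 of the 13 member probe sets were higher in adrenal than in liver of the same AMG B control animals on day 14, where 43.6% of all probe sets passed the test in either direction and 23.8% were higher (limma, Benjamini-Hochberg adjusted p under 0.05). Against pancreas, 11 of 13 were higher in AMG B controls (57.6% of all called, 29.4% higher) and 12 of 13 in AMG A controls (54.1% called, 28.5% higher). The adrenal arrays carried the RNA of steroid-making cells: Star stood at 1.28, 1.26, 1.53 and 1.36 in the 4 AMG B control adrenals of day 14 and between -0.691 and -0.682 in the matching livers. The weakest was Nr0b1, higher than in liver by 1.08 ± 0.423 (SE; adjusted p = 0.0387), a call lost without any 1 of 3 of the 4 animals, and higher than in pancreas of the AMG B controls by 0.705 without passing (adjusted p = 0.156). Markers of hepatocytes and of pancreatic acinar cells were both measured for 6 genes, and their median difference between treated and control adrenals lay between -0.00167 and 0.0138 over the 8 dose comparisons.

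One array stood apart in its cell markers. Animal 35, given 60 mg/kg of AMG B for 14 days, had a mean score of 5.41 over 6 fibroblast and capsule genes, against -0.490 to -0.384 in the other 3 animals, 1.57 over 12 endothelial genes (others -0.401 to -0.231) and 0.00532 over 6 macrophage genes (others -1.16 to -1.04). Its mean over 7 fat cell genes was the highest of the group at 1.54, and its mean over 11 medulla genes the lowest at 0.497 (others 1.31 to 1.82). Its scores for Star (1.40) and Cyp11a1 (1.34) lay within the range of the other 3 animals. By the probe set of Cyp11b1 alone and the one shared with Cyp11b2 only, it was the lowest of the group. Without this animal 0 of 13 member probe sets were called in that comparison, with 4.96% of all. On day 4 animal 22 at 60 mg/kg had the highest medulla mean of its group, 2.57 (others 0.623 to 1.31), and without it the members' count was also 0 of 13, with 0.825% of all called. The results that follow are for all animals, with values without these 2 where they change.

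The probe set annotated to Cyp11b1 and Cyp11b3 was the exception in every tissue comparison. Its mean was 0.213 ± 0.917 (SD, n = 16) in control adrenals and -0.229 ± 1.27 (SD, n = 12) in control livers, and the share of its variance that lay between tissues was 0.109. For the probe set that reads Cyp11b1 alone that share was 0.982, so the Cyp11b1 and Cyp11b3 probe set did not show the adrenal pattern of the other Cyp11b1 probe sets and its values are given below without reading them as Cyp11b1.

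Neither compound changed a member past the test at any dose or day. Over 13 probe sets and 8 comparisons with controls of the same study and day, 0 of 104 differences passed an adjusted p of 0.05, and the lowest adjusted p was 0.166. At an unadjusted p under 0.05 there were 4, from the Cyp11b1 and Cyp11b3 probe set on day 1 at both AMG B doses, the second probe set of Fdx1 at 3 mg/kg of AMG B on day 4 and Cyp11a1 at 3 mg/kg of AMG A on day 14. The share of all probe sets called was 0.00644%, 0.0354% and 0.00322% at 3 mg/kg of AMG B on days 1, 4 and 14, and 0.335%, 0.889% and 5.96% at 60 mg/kg. It was 0% at both doses of AMG A, where 3.47% and 5.8% had an unadjusted p under 0.05 at 3 and 30 mg/kg. A count of 0 of 13 lies near each of these shares, also at 60 mg/kg of AMG B on day 14, where 1851 of 31042 probe sets were called, so the counts do not set the members apart from the other probe sets.

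A p that misses the threshold does not show that the levels were equal, and the intervals give the sizes these arrays could still hide. For Star, Cyp11a1, Cyp21a1, Cyp11b1 and Fdx1, each by its representing probe set (where a gene has several, the one whose variance lay most between tissues, called its first probe set below), the 40 differences lay between -5.15% and 11.1% of the adrenal to liver gap. Their 95% intervals reached from -15.3% to 25.4%, so that a difference below -15.3% of the gap lay outside every interval of these 5 probe sets. That limit does not hold for the second probe sets of the same genes: the intervals of the second Star probe set reached from -17.4% to 22.5%, and those of the second Fdx1 probe set from -49.4% to 100.5%, with differences from -14.7% to 51.6%. For Nr5a1 the differences ran from -11.8% to 13.1% with intervals from -33.3% to 37.6% by its first probe set and from -11.0% to 39.0% with intervals from -39.1% to 81.9% by its second, and for Nr0b1 from -19% to 56.4% with intervals from -69.2% to 136%. By the first probe sets the regulators were thus measured with wider error than the other 5 genes. The second Fdx1 probe set had wider intervals than either Nr5a1 probe set. Little can be said of small changes in the regulators.

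**Figure D1:**
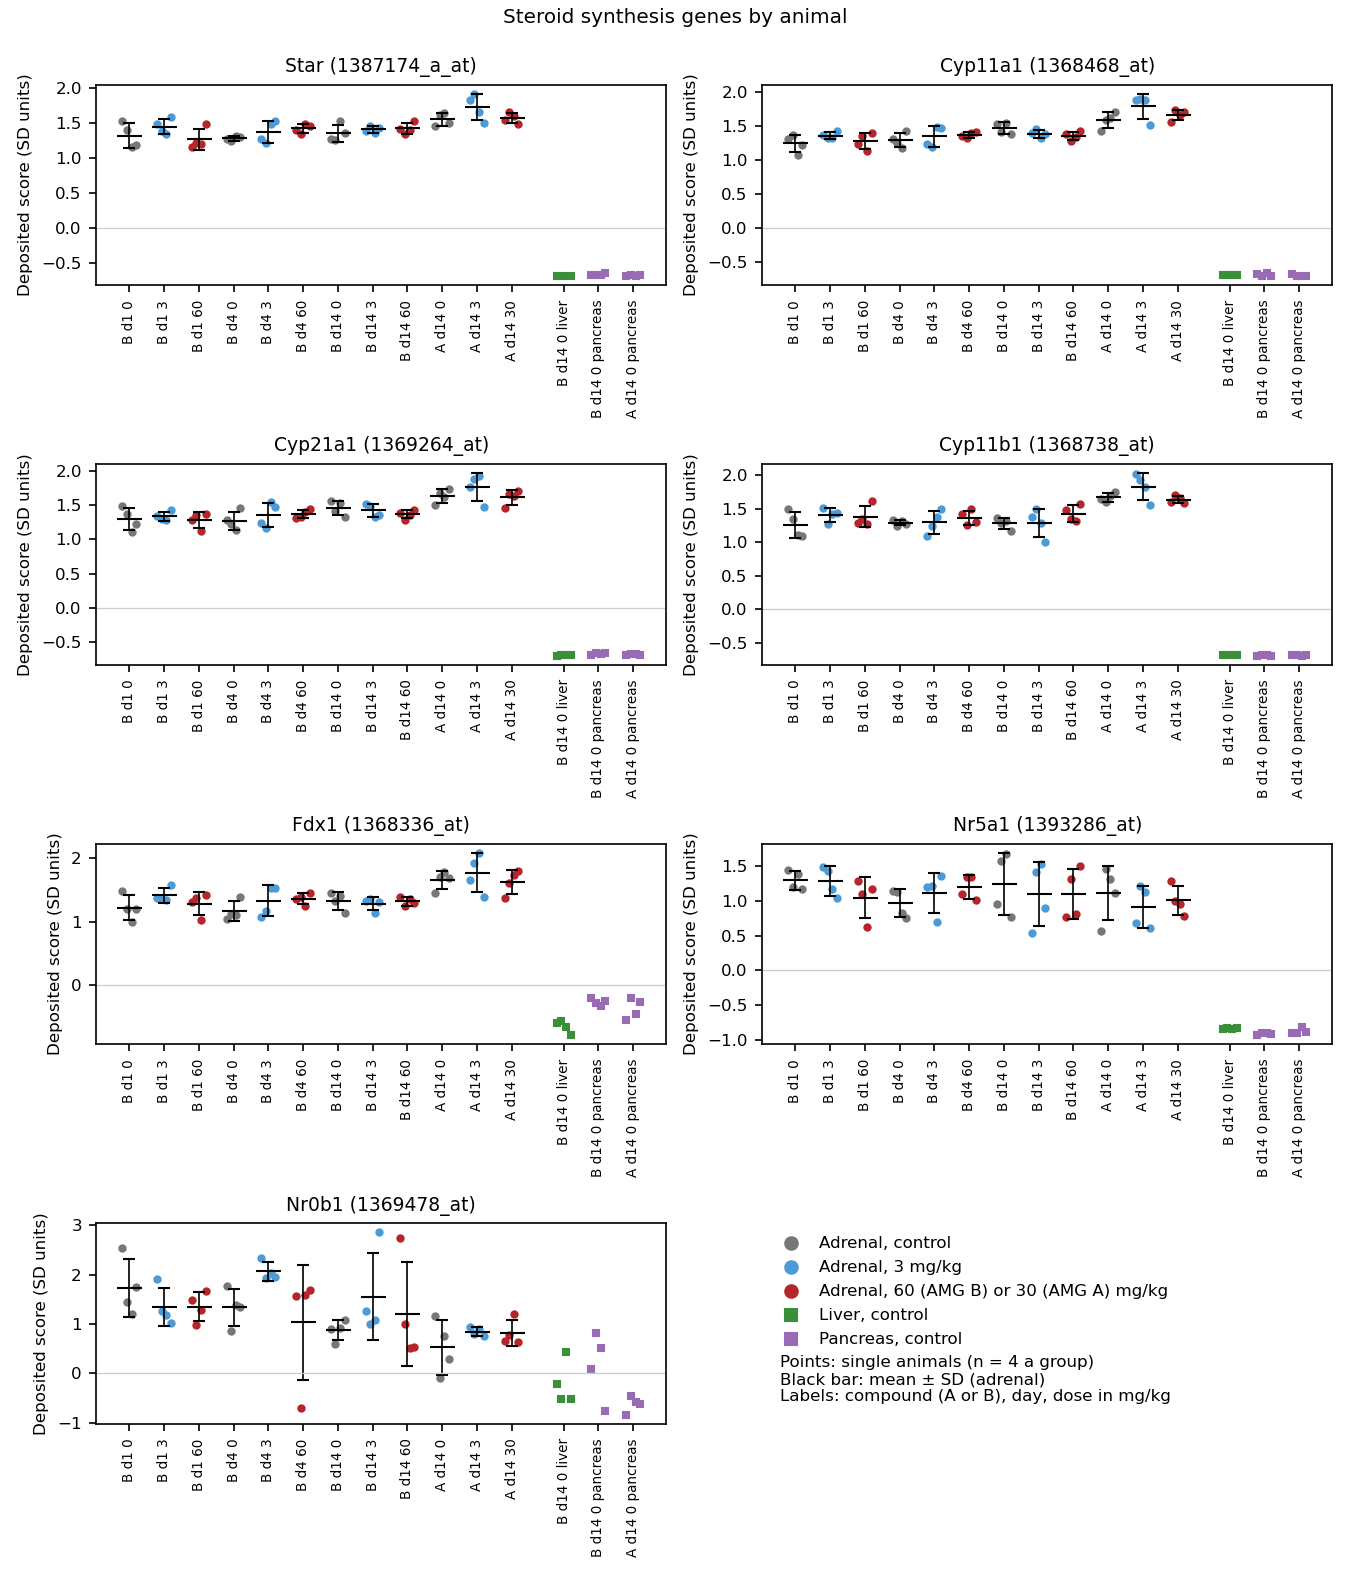
Deposited score of 7 steroid synthesis genes in each animal, 1 panel a gene, for the 12 adrenal groups (compound, day and dose in mg/kg on the axis; black bars are mean ± SD, n = 4) and for control liver and pancreas on day 14. Star, Cyp11a1, Cyp21a1, Cyp11b1 and Fdx1 sit in narrow bands far above liver and pancreas in every group, while single animals of Nr0b1 range from -0.701 to 2.86.

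Star, the carrier that delivers cholesterol, was even across the groups. At 60 mg/kg of AMG B on day 14 its scores were 1.42, 1.34, 1.40 and 1.54, against 1.28, 1.26, 1.53 and 1.36 in the controls. The 2 groups overlapped, and the difference was 0.0703 ± 0.09 (SE), 3.44% of the gap (interval -5.47% to 12.3%; limma adjusted p = 0.767). On day 4 the 60 mg/kg animals stood at 1.41, 1.34, 1.48 and 1.46 and the controls at 1.27, 1.24, 1.32 and 1.30. All 4 treated animals lay above all 4 controls there, by 7.23% of the gap, but the adjusted p was 0.589 and the second Star probe set overlapped between the groups (1.16, 1.17, 1.42 and 1.21 against 1.12, 1.32, 1.06 and 1.29). No overlap was seen in 3 of the 13 member probe sets in that comparison, against 6.6% of all probe sets; the other 2 were the second probe set of Nr5a1 and the one shared by Cyp11b1, Cyp11b2 and Cyp11b3.

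Cyp11a1 makes pregnenolone, the first steroid of the path, and was the member with the least scatter between animals of a group: its pooled SD was 0.107, or 5.12% of the gap. At 60 mg/kg of AMG B on day 14 it stood at 1.38, 1.28, 1.34 and 1.42 and in the controls at 1.54, 1.41, 1.55 and 1.38. The difference was -0.111 ± 0.0828 (SE), -5.15% of the gap, with overlapping groups and an adjusted p of 0.528. At 3 mg/kg of AMG A on day 14, 3 animals stood at 1.88, 1.89 and 1.88 and the fourth at 1.52, against controls at 1.43, 1.59, 1.61 and 1.71. The difference of 0.207 ± 0.0828 (SE), 9.08% of the gap, had an unadjusted p of 0.017 and did not pass after adjustment, and without the low animal it was 0.299 with an adjusted p of 0.449. At 30 mg/kg the scores were 1.56, 1.73, 1.67 and 1.70, a difference of 0.0791 ± 0.0828 (SE), so that the higher dose did not show a larger difference than the lower one.

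Fdx1, the small iron-sulphur protein that hands electrons to Cyp11a1 and Cyp11b1, was read by 2 probe sets that scattered to different degrees. The pooled SD was 0.174 for the first, 8.86% of the gap, and 0.493 for the second, 29.2% of it. At 60 mg/kg of AMG B on day 14 the first stood at 1.39, 1.24, 1.35 and 1.30, against 1.45, 1.32, 1.40 and 1.13 in controls, a difference of -0.256% of the gap. For the second, the 3 mg/kg group of AMG B on day 4 stood at 1.53, 1.59, 2.18 and 1.24 and its controls at 0.985, 1.36, 0.554 and 0.716. These overlapped, and the difference of 0.733 ± 0.342 (SE) had an unadjusted p of 0.0388 and an adjusted p of 0.769; the first probe set differed there by 0.162 ± 0.126 (SE).

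Cyp21a1, the 21-hydroxylase, followed Cyp11a1 from animal to animal. At 60 mg/kg of AMG B on day 14 it stood at 1.39, 1.29, 1.36 and 1.42, and in controls at 1.56, 1.42, 1.53 and 1.32. The groups overlapped and the difference was -0.0907 ± 0.0931 (SE), -4.22% of the gap (interval -13% to 4.56%; adjusted p = 0.688). Over the 8 comparisons its difference was above 0 in 4 and below 0 in 4.

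Cyp11b1, the 11β-hydroxylase that makes corticosterone, was read alone by 1 probe set and together with Cyp11b2 by another. At 60 mg/kg of AMG B on day 14 the first stood at 1.48, 1.34, 1.31 and 1.57 and in controls at 1.36, 1.28, 1.31 and 1.17. Its mean was higher by 0.145 ± 0.103 (SE), 7.36% of the gap, with overlapping groups and an adjusted p of 0.5. The shared probe set stood at 1.50, 1.38, 1.34 and 1.52 against 1.42, 1.34, 1.42 and 1.34. Over the 8 comparisons this shared probe set differed by -2.8% to 6.12% of the gap, and the probe set that also reads Cyp11b3 by -6.54% to 9.5%. These probe sets give no separate value for aldosterone synthase, and a change of Cyp11b2 alone was not tested.

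**Figure D2:**
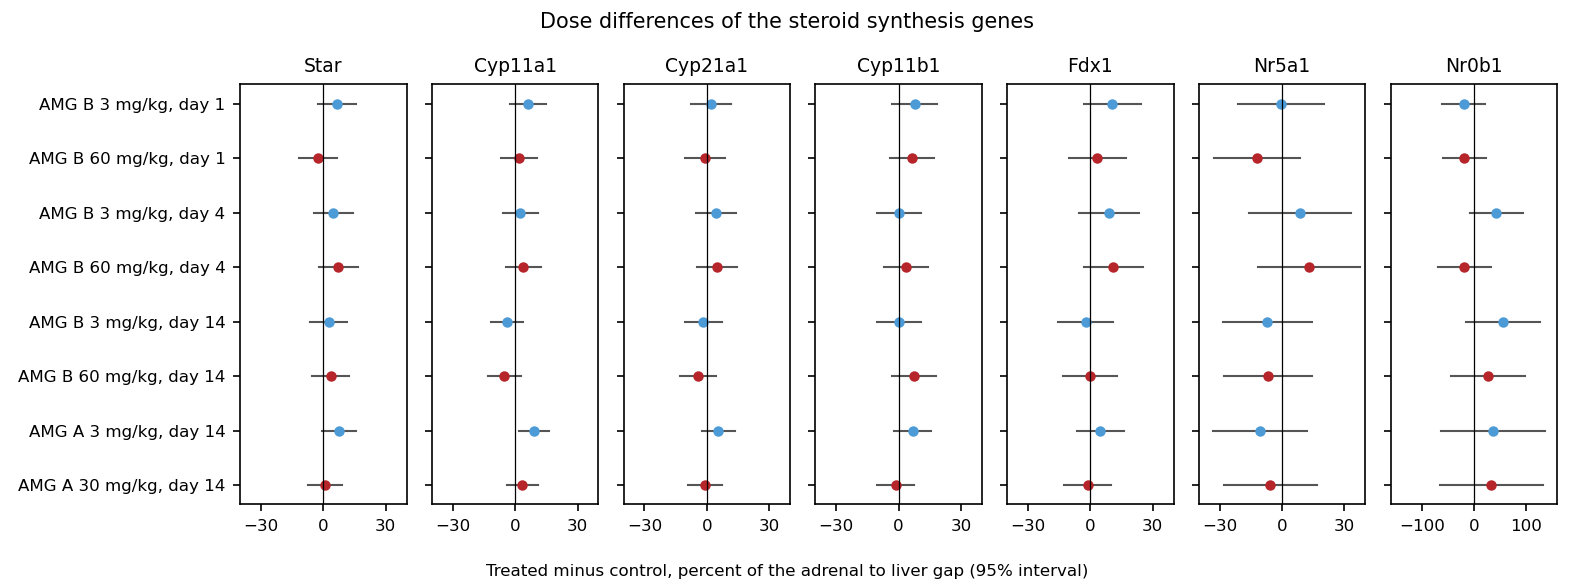
Treated minus control difference of 7 genes as a percent of the adrenal to liver gap (points, red for 60 or 30 mg/kg and blue for 3 mg/kg) with 95% intervals (lines) for the 8 dose comparisons. The horizontal scale of Nr0b1 is wider than that of the other genes. The points of Star, Cyp11a1, Cyp21a1, Cyp11b1 and Fdx1 lie between -5.15% and 11.1%.

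Nr5a1, the receptor that drives these genes, scattered more than the first probe sets of the enzymes and of Star and Fdx1, with its widest groups on day 14. In AMG B controls of that day its first probe set stood at 0.961, 1.57, 1.69 and 0.765, and the second at 1.40, 2.05, 2.13 and 0.873, so that the same 2 animals were high by both probe sets. At 60 mg/kg the first stood at 0.775, 1.32, 0.814 and 1.50 and the second at 0.718, 1.68, 0.888 and 2.18. Again the same 2 animals were high by both, and the groups overlapped: the differences were -0.144 ± 0.218 (SE) and -0.246 ± 0.313 (SE). Over the 48 adrenal arrays the deviations of the 2 probe sets from their group means had a correlation of 0.906, as a description of probe sets that share a transcript and an array. On day 4 the second stood at 1.42, 1.41, 1.33 and 1.46 at 60 mg/kg and at 0.833, 1.01, 0.946 and 0.535 in controls, without overlap; the difference of 0.576 ± 0.313 (SE) had an adjusted p of 0.497, and the first, at 1.10, 1.35, 1.35 and 1.01 against 1.15, 1.13, 0.828 and 0.757, overlapped.

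Nr0b1, the repressor, was the least even member, with a pooled SD of 0.606, or 41.9% of the gap. On day 4 the controls stood at 1.77, 0.858, 1.38 and 1.35, the 3 mg/kg group of AMG B at 2.35, 1.92, 2.04 and 1.95, and the 60 mg/kg group at 1.56, -0.701, 1.58 and 1.70. All 4 animals at 3 mg/kg lay above all 8 others, but their difference from controls, 0.725 ± 0.42 (SE), had an adjusted p of 0.877; it was the only member probe set of 13 without overlap there, against 3.5% of all probe sets. The difference between 60 and 3 mg/kg was -1.03 ± 0.42 (SE) with an adjusted p of 0.413. Without the 1 animal at -0.701 it was -0.449, and the 60 mg/kg group then lay 0.277 above the controls instead of 0.303 below them. The same animal, animal 22, had the highest medulla mean of its group and the lowest mean over 16 genes of the zona glomerulosa and zonation (0.0202 against 0.513 to 0.677); the part of these cells in its Nr0b1 score was not tested. On day 14 single animals again set the means: 1 of 4 at 3 mg/kg stood at 2.86, 1 of 4 at 60 mg/kg at 2.75, and the controls at 0.905, 0.594, 0.912 and 1.08. Without these animals the differences from controls fell from 0.677 to 0.241 at 3 mg/kg and from 0.326 to -0.189 at 60 mg/kg.

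The probe set of Cyp11b1 and Cyp11b3 gave the largest score differences of the 13, on day 1. It stood at 1.17, 0.124, 1.78 and 1.75 at 3 mg/kg of AMG B, at 0.892, 0.81, 0.986 and 1.16 at 60 mg/kg, and at -0.897, -1.09, 0.935 and -0.999 in the shared controls. The differences were 1.72 ± 0.448 (SE) and 1.47 ± 0.448 (SE), with adjusted p of 0.369 and 0.166, and 1 control animal overlapped both treated groups. Without that control animal the difference at 60 mg/kg was 1.96 with an adjusted p of 0.0494. Of the other 12 probe sets, the one farthest from its controls on that day was Nr0b1, at -0.391 and -0.381.

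Doses were also set against each other within a compound. Between 60 and 3 mg/kg of AMG B, 0 of 13 member probe sets were called on days 1, 4 and 14, where 0.00966%, 0.0966% and 4.5% of all probe sets were; between 30 and 3 mg/kg of AMG A it was 0 of 13, with 0% of all. On day 4, 2 of 13 did not overlap between the doses, that of Nr0b1 and the second of Nr5a1, against 5.25% of all. The difference of the 60 mg/kg effect between days was called for 0 of 13 in each of 3 comparisons, with 0.00644% of all probe sets called for day 4 against day 1, 1.16% for day 14 against day 1 and 0.999% for day 14 against day 4.

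Adrenal arrays of both compounds at a matched dose and day were only those at 3 mg/kg for 14 days, which made 1 pair to compare. The effect of AMG A minus that of AMG B passed the test for 0 of 13 member probe sets, with 0.00644% of all called. For Cyp11a1 it was 0.288 ± 0.117 (SE; 95% interval 0.0512 to 0.526; unadjusted p = 0.0185; adjusted p = 0.998), from 0.207 under AMG A and -0.0815 under AMG B. For Star it was 0.117 (interval -0.141 to 0.375), for Cyp21a1 0.165 (-0.102 to 0.431), for Cyp11b1 0.152 (-0.142 to 0.447), for Fdx1 0.154 (-0.207 to 0.514) and for Nr0b1 -0.36 (-1.56 to 0.842). At the high doses, which differ, the day 14 difference from controls for Cyp11a1 was 0.0791 at 30 mg/kg of AMG A and -0.111 at 60 mg/kg of AMG B.

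Among the untreated adrenals a few member probe sets did pass the test, between studies and between days. On day 14 Cyp11b1 stood at 1.64, 1.59, 1.68 and 1.75 in the AMG A controls and at 1.36, 1.28, 1.31 and 1.17 in the AMG B controls, with no overlap. The difference, 0.388 ± 0.103 (SE), was 19.7% of the gap (interval 9.13% to 30.3%; limma adjusted p = 0.0397). It was the 1 member probe set called of 13, where 1.76% of all were called, and 5 of 13 did not overlap, against 10.7% of all. The call was lost when any 1 of the 8 animals was left out, with the difference between 0.352 and 0.414 and the adjusted p between 0.0577 and 0.138. Star (0.203), Cyp11a1 (0.117), Cyp21a1 (0.176) and Fdx1 (0.332) were also higher on average in the AMG A controls but did not pass, and among the genes most like them Pgrmc1 differed by 0.47 and Eef1a1 by 0.365, neither past the test. Study, handling and array run cannot be told apart here.

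Within the AMG B study, controls of day 14 differed from those of day 1 in 2 of 13 member probe sets, where 25.3% of all probe sets were called and 14.2% were higher. Cyp11a1 stood at 1.54, 1.41, 1.55 and 1.38 on day 14 and at 1.31, 1.37, 1.08 and 1.23 on day 1, a rise of 0.224 ± 0.0828 (SE; 11.5% of the gap; adjusted p = 0.043). The probe set shared by all 3 Cyp11b genes stood at 1.60, 1.48, 1.54 and 1.31 against 1.29, 1.16, 1.06 and 0.959, a rise of 0.364 ± 0.106 (SE; 20.2% of the gap; adjusted p = 0.0101). Against day 4 it was the 1 of 13 called (difference 0.335; adjusted p = 0.0175; 25.5% of all called), and between days 4 and 1 it was 0 of 13 (0% of all called; 7.45% of all and 1 of 13 members at an unadjusted p under 0.05). Groups without overlap were seen in 3 of 13 member probe sets between days 14 and 1 (30.3% of all), 2 of 13 between days 14 and 4 (27.8%) and 1 of 13 between days 4 and 1 (4.65%), the last being the first probe set of Nr5a1 (difference -0.33; adjusted p = 0.811). With quantile normalization of the arrays the 3 rises called above shrank to 0.0639, 0.221 and 0.229 and none of the 3 passed (adjusted p of 0.636, 0.138 and 0.126), while Nr0b1, lower on day 14 than on day 1 by 0.863 without passing, was lower by 1.11 and passed (adjusted p = 0.0407). The rise of Cyp11a1 kept its call in 4 of the 8 fits that left out 1 animal, and that of the shared probe set over day 4 was lost without animal 25. Cyp11b1 by its own probe set differed by 0.0232 between days 14 and 1, so its probe sets did not move together here. The 2 of 13 calls between those days, both rises, lay near the 14.2% of all probe sets called higher. That count does not set the members apart from the other probe sets. Day, handling and array run cannot be told apart between these control groups.

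The members' movements from animal to animal were shared among the enzymes. Over the 48 adrenal arrays Cyp11a1 and Cyp21a1 had a Pearson correlation of 0.963, and 0.93 after the group means were removed. Cyp11a1 with Fdx1 had 0.881 and 0.803 by the first Fdx1 probe set, but 0.178 and 0.288 by the second. Cyp11b1 with its probe set shared with Cyp11b2 had 0.952 and 0.905. Nr0b1 with Cyp11a1 had -0.355 and 0.0607. Nr5a1 with Cyp11a1 had -0.116 and 0.124 by its first probe set, and 0.411 and 0.139 by its second. All such values are across arrays that share their labelling and normalization, as a description.

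**Figure D3:**
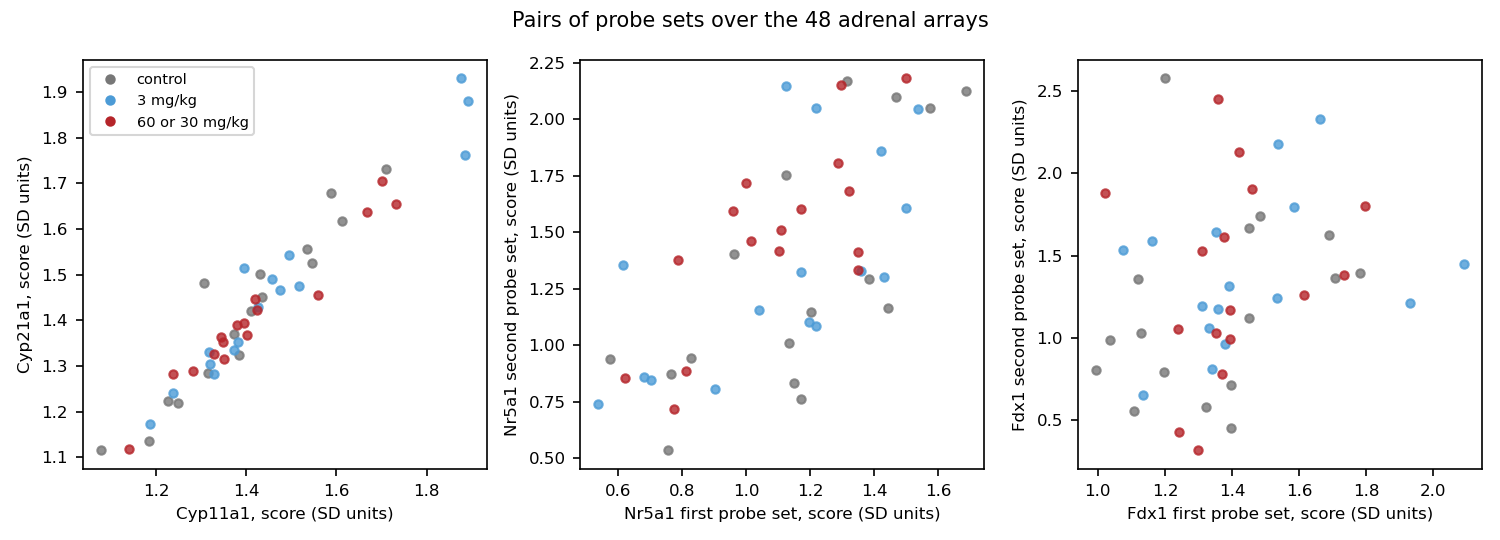
Scores of 2 probe sets against each other over the 48 adrenal arrays (grey, control; blue, 3 mg/kg; red, 60 or 30 mg/kg), for Cyp11a1 with Cyp21a1, for the 2 probe sets of Nr5a1 and for the 2 of Fdx1. The first pair lies on a line (correlation 0.963), the Nr5a1 pair is looser (0.671) and the Fdx1 pair is scattered (0.267).

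The genes most like a member were picked by the highest correlation over the same 48 arrays. Hspd1, a mitochondrial chaperonin found in most cells, was the most like Cyp11a1 (Pearson 0.987, Spearman 0.98, and 0.985 without the 2 arrays farthest from the median) and Cyp21a1 (0.977, 0.957 and 0.968). Akr1b7, an aldose reductase family enzyme abundant in the rodent adrenal, and Cyp1b1 came next for both, with 0.971 and 0.944 for Cyp11a1. Star was most like Akr1b7 (0.875) and Eef1a1 (0.873), a translation factor used by every cell, and Cyp11b1 most like Akr1b7 (0.831), Pgrmc1 (0.825) and Eef1a1 (0.825). The list for Fdx1 was Hspd1 (0.899), Akr1b8 (0.877) and Akr1b7 (0.87). Nr0b1 was most like Igsf1 (0.761), Pde2a (0.738) and Ptprd (0.731), and Nr5a1 most like Tp53inp2 (0.727), Mapkapk2 (0.722) and Sipa1l2 (0.692), so neither regulator shared a gene with the enzymes. Not all of these genes have an adrenal pattern: Eef1a1 stood at 2.37 ± 0.486 (SD, n = 8) in control pancreas and 0.0279 ± 0.336 (SD, n = 16) in control adrenal. Ptprd had a mean of 1.57 in control liver and -0.687 in control adrenal, and Tp53inp2 1.30 and 0.105. The probe set of Hspd1 was high in control adrenal (1.34), against -0.636 in liver and -0.878 in pancreas.

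Around the members, 60 mg/kg of AMG B on day 14 changed genes of cholesterol supply past the test. Of 10 measured, 2 rose and 3 fell, where 5.96% of all probe sets were called, with a median difference of -0.292 beside 0.000868 over all probe sets. Stard4, a cytosolic cholesterol carrier, rose from -0.162 ± 0.289 to 1.4 ± 1.21 (SD, n = 4; difference 1.57 ± 0.425, SE; limma adjusted p = 0.0199), and Scarb1, the receptor that takes up HDL cholesterol, was higher by 0.553 (adjusted p = 0.0447). Apoe, which carries cholesterol in lipoproteins and is made by many cells, fell by 0.689 (adjusted p = 0.000382); Stard3 and Tspo fell by 0.542 and 0.513. Without animal 35, 1 rose and 3 fell. The rise of Stard4 did not pass without animal 28, 34 or 36, and that of Scarb1 did not pass in 9 of 13 alternative fits. The fall of Stard3 did not pass without animal 27. With only the compared groups in the fit none of these rises and falls passed, among them Apoe (limma adjusted p = 0.113) and Tspo (0.143). None of the 10 was called on days 1 or 4 or at 3 mg/kg.

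In the other lists few genes passed at 60 mg/kg of AMG B, and the counts on day 14, 1 gene in each of 4 lists of 15 to 20, were near the 5.96% called over all probe sets; 0.335% were called on day 1 and 0.889% on day 4. Of 15 other steroid enzymes and electron donors, H6pd, which supplies NADPH in the endoplasmic reticulum, was higher on day 1 (0.452; adjusted p = 0.0365), and Hsd11b2, which inactivates corticosterone, was lower on day 14 (-0.784; adjusted p = 0.0421). Of 20 genes of ACTH and angiotensin signalling, Agtr1a, the angiotensin receptor, was higher on day 14 by 0.171 (adjusted p = 0.0123). Of 16 transcription factors, Nr3c2, the mineralocorticoid receptor, was lower on day 14 (-0.799; adjusted p = 0.0341). Of 16 genes of the zona glomerulosa and zonation, Vsnl1, a calcium sensor of the aldosterone-making zone, was lower on day 4 (-1.63; adjusted p = 0.00904) and day 14 (-1.69; adjusted p = 0.00119), and Dab2, an adaptor protein of that zone, on day 4 (-1.32; adjusted p = 0.0421). The calls of H6pd, Hsd11b2, Nr3c2 and Dab2 were lost in 9, 8, 7 and 8 alternative fits, and that of Vsnl1 on both days when only the compared groups entered the fit. Without animal 35 the day 14 calls of Hsd11b2, Agtr1a and Nr3c2 did not pass (adjusted p of 0.219, 0.0902 and 0.154), and without animal 22 the day 4 calls of Vsnl1 and Dab2 did not (0.0528 and 0.221), while Cacna1h, a calcium channel subunit, was lower past the test (-2.08; adjusted p = 0.0172). The lists held 0 calls at 3 mg/kg of AMG B and at both doses of AMG A.

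**Figure D4:**
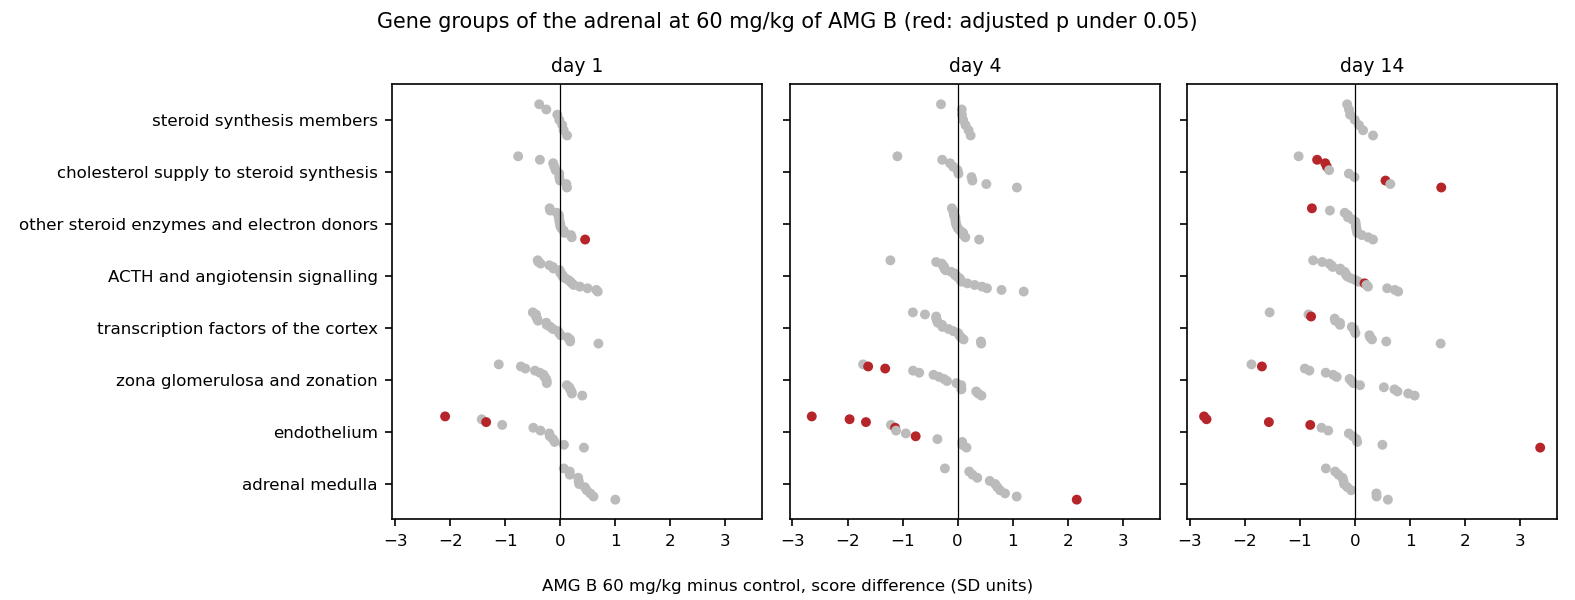
Score difference of 60 mg/kg of AMG B minus control on days 1, 4 and 14, 1 point a gene, for the 7 members and 7 other gene groups (red, adjusted p under 0.05). No member point is red on any of the 3 days, and endothelial genes reach -2.74 on day 14. Each probe set is scaled by its own spread over adrenal, liver and pancreas, so sizes cannot be compared between the gene groups.

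Markers of the other cells of the gland were read in the same animals. At 60 mg/kg of AMG B, 0.335%, 0.889% and 5.96% of all probe sets were called on days 1, 4 and 14. Of 12 endothelial genes, 2 were lower at that dose on day 1, 5 on day 4 and 4 on day 14, when 1 was higher. These counts were 3 lower on day 4 without animal 22, and 6 lower and 1 higher on day 14 without animal 35. Tek, the angiopoietin receptor, fell by 2.09, 1.67 and 2.7 on the 3 days, Tie1 by 2.65 and 2.74 on days 4 and 14 and Emcn, a surface mucin of capillaries, by 1.35, 1.96 and 1.57. Esm1, a secreted product of activated endothelium, was higher on day 14 by 3.36 ± 0.777 (SE), from 0.62 ± 0.354 to 3.98 ± 3.75 (SD, n = 4). Without animal 35 it was higher by 1.54 (limma adjusted p = 0.00133). At 3 mg/kg of AMG B, 0 endothelial genes were called. There 3, 8 and 3 of 12 were lower at an unadjusted p under 0.05 on days 1, 4 and 14. Of all probe sets 4.79%, 6.28% and 5.89% had such a p. AMG A had 0 called, with 1 of 12 lower at that unadjusted p at 3 mg/kg and 2 at 30 mg/kg (3.47% and 5.8% of all). Of 11 medulla genes, 11 lay above 0 at 60 mg/kg of AMG B on day 1, where 52.3% of all probe sets did. Their median was 0.343 and 0 passed the test. The medulla mean of an animal was 0.963 to 1.13 there and 0.425 to 0.842 in controls. On day 4, 10 of the 11 lay above 0, with a median of 0.682. Only Pnmt, which makes adrenaline, passed the test that day (2.16, limma adjusted p = 0.0125). On day 14, 3 lay above 0 with a median of -0.2. Without animal 22 the day 4 count was 9 of 11 with a median of 0.287 and Pnmt did not pass (1.59; adjusted p = 0.0782), and without animal 35 the day 14 count was 8 of 11 with a median of 0.111 and Th, the first enzyme of catecholamine synthesis, was higher past the test (0.958; adjusted p = 0.0387). Of 6 macrophage genes 2 were lower on day 1 and 3 on day 14, among them C1qa (-0.517 and -0.652) and, on day 14, Csf1r (-0.639); without animal 35, 5 were lower on day 14. Of 4 red cell genes, 1 lay above 0 on day 4 and only Hbb was lower past the test (-1.35, limma adjusted p = 0.00904). Hbb did not pass without animal 13. Of 7 fat cell genes and 6 fibroblast and capsule genes, 0 passed on any of the 3 days. On day 14 the median difference of the fibroblast and capsule genes was 1.12, with 4 of 6 at an unadjusted p under 0.05 (18.8% of all probe sets), and without animal 35 it was -0.14 with 0 of 6; that of the fat cell genes was 0.516 and 0.238 without that animal. With only the compared groups in the fit, the calls of Tek and Pnmt on day 4 and of Tie1 on days 4 and 14 were lost. So were those of Emcn and C1qa on days 1 and 14, Esm1 and Csf1r on day 14 and Hbb on day 4. Tek on days 1 and 14 and Emcn on day 4 kept their calls. The part of these other cells of the gland in any member's value was not tested.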

How the data were processed

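Affymetrix arrays of 31042 probe sets were used in a single table that the authors deposited; they hold a score, standardised per probe set across arrays as the values themselves show (the median SD was 1.01), and neither the earlier steps nor a log or linear origin of the score is stated in the labels. Per the labels' protocols, RNA was taken with spin columns and labelled with biotin. The table holds 108 arrays; 36 liver arrays of the AMG A study, in another table, were not used. Symbols came from the platform annotation: 20826 probe sets had 1 symbol, 436 had several and 9780 had none.

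Scores were tested as deposited, two-sided, with limma 3.58.1 in R 4.3.3 (lmFit, contrasts.fit, eBayes with trend) over all probe sets, with Benjamini-Hochberg adjustment within each comparison and a threshold of 0.05. All 48 adrenal arrays entered 1 fit, and the tissue comparisons used the 36 day 14 arrays of AMG B or the 24 of AMG A. An interval is a 95% interval of the difference; the number of arrays limits its precision. The labels name no batch, and nothing says how animals were housed or arrays run, so the p-values measure the spread between these animals. No 2 arrays of a group correlated above 0.767 and none was counted as a repeat. The fit was checked on simulated data.

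The design had foreseen log-scale values; the scores cannot be turned into logs, so limma was run on them directly and an alternative pseudocount was not run. The members and all gene lists were chosen with earlier results of these data known. Named in the text are all members, up to 3 passing genes a list and comparison, and the 3 genes most correlated with each member. Alternatives tried were a low-score filter (40th percentile of an array, on 4 arrays), quantile normalization, gene means over probe sets, eBayes without trend, array weights, only the groups compared, each animal left out, and, for tissues, the animal as a replicate block. Tissues of 1 animal are paired by the animal numbers in the titles; the deviations of same-numbered adrenal and other arrays from their group means correlated between -0.0639 and 0.154. Dose groups share no animals. Figures were drawn with matplotlib 3.10.9.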

Additional observations from a re-analysis of the deposited data

Results flagged for a closer look

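In 10 of 156 groups of 4 adrenals (13 probe sets, 12 groups), 1 animal stood apart from the other 3 by Dixon's test; chance flags about 1 in 20 groups. Nr0b1 had 2 of them: animal 32 at 3 mg/kg of AMG B on day 14 stood at 2.86 (others 0.998 to 1.26), and animal 22 at 60 mg/kg on day 4 at -0.701 (others 1.56 to 1.70). Cyp11a1 stood at 1.52 in animal 3024 at 3 mg/kg of AMG A (others 1.88 to 1.89). Fdx1 stood at 1.58 (first probe set) in animal 8 at 3 mg/kg of AMG B on day 1 and at 0.315 (second probe set) in animal 36 at 60 mg/kg on day 14. Star by its second probe set stood at 1.68 in animal 30 at 3 mg/kg of AMG B on day 14 (others 1.19 to 1.26).

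The probe set shared by Cyp11b1, Cyp11b2 and Cyp11b3 stood at 1.41 in animal 23 at 60 mg/kg of AMG B on day 4 (others 1.28 to 1.30). The probe set of Cyp11b1 and Cyp11b3 had 3 such animals: 3034 at 30 mg/kg of AMG A (1.30), control animal 3 of AMG B on day 1 (0.934) and animal 36 at 60 mg/kg on day 14 (0.804). Cyp11a1 at 3 mg/kg of AMG B lay above the control mean in all 4 animals on day 1 (difference 0.116) and below it in all 4 on day 14 (difference -0.0815); the 2 differences are 0.197 apart, and that was not tested.

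Of the means over the genes of 8 cell marker lists, 13 of 96 groups held 1 animal apart from the other 3, where chance gives about 1 in 20. Animal 35 at 60 mg/kg of AMG B on day 14 was 4 of them: fibroblast and capsule genes at 5.41 (others -0.490 to -0.384), endothelial genes at 1.57 (others -0.401 to -0.231), macrophage genes at 0.00532 (others -1.16 to -1.04) and pancreatic acinar genes at -0.443 (others near -0.449). For fat cell genes they were control animals 3010 of AMG A (0.514) and 26 of AMG B on day 14 (-0.0587), animal 17 at 3 mg/kg of AMG B on day 4 (0.395) and animal 10 at 60 mg/kg on day 1 (0.0323). For hepatocyte genes they were animals 3010 (-0.993) and 22 (-0.929). The rest were animal 10 for acinar genes (-0.444), animal 21 at 60 mg/kg on day 4 for macrophage genes (-1.20) and animal 18 at 3 mg/kg on day 4 for red cell genes (-0.648).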

How the results depend on the processing

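Of the 104 member differences between dose and control, none of them called, 38 changed sign under at least 1 alternative, none of these past the test; that of Nr0b1 at 60 mg/kg of AMG B ran from -0.524 to 0.277 on day 4 and from -0.189 to 0.555 on day 14 with 1 animal left out. The members' count of calls stayed at 0 in the dose comparisons, except that 60 mg/kg of AMG B on day 1 gave 0 to 1 calls with 1 animal left out. The single call between AMG A and AMG B controls became 3 with array weights, 0 with only the groups compared, and 0 to 0 with 1 animal left out. The 2 calls between days 14 and 1 became 1 with the filter on low scores, 1 with only the groups compared, 1 with quantile normalization, 1 with gene means and 1 to 2 with 1 animal left out. The 1 call between days 14 and 4 became 2 with array weights, 0 with only the groups compared, 0 with quantile normalization, 0 with gene means and 0 to 2 with 1 animal left out. Gene means, which test 7 genes in place of 13 probe sets, gave 7 calls against liver and 6 against pancreas in AMG B controls and 7 against pancreas in AMG A controls; leaving out 1 animal gave 11 to 12 calls against liver. The cause of the other changes was not tested. With the animal as a replicate block, the tissue counts stayed at 12, 11 and 12. Nr0b1 was still higher in adrenal than in liver by 1.08 (limma adjusted p = 0.0365), and the paired fit changed no member call. A change of pseudocount was not run, since scores can be negative. With 4 animals a group, differences of Nr5a1 and Nr0b1 are limited by their spread, and signal over background is not in the scores. Leaving out animals 35 and 22 for the gene list counts was chosen after seeing the data.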
